A study of Mus musculus with 4 samples.

Results

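The genes described are 28 interferon-stimulated genes and 10 genes of MHC class I antigen presentation, chosen from a fixed list of symbols and followed on 4 mouse Affymetrix arrays. Of these 38 genes, 37 had a named probe set among 23185 named genes, namely 27 interferon-stimulated and 10 class I genes, and Ifi44 had none. Each array held 1 population. The iPS population was induced pluripotent stem cells made from club cells, the secretory cells of the airway lining, and is labelled Club-iPS. The other 3 populations formed a time course that began with club cells freshly isolated from adult mouse lung (Day0). Club cells cultured for 3 weeks with doxycycline are called 3w+Dox here and Club-iPL in the labels, and the last population, called withdrawn cells here, then spent 2 more weeks without the drug (3w+Dox+2w-Dox). Doxycycline is widely used to turn on inducible transgenes. The sources used here do not give the transgene, the mouse strain, the number of animals, a sort of the isolate or a feeder layer. With 1 array per population there was no replicate, so no SD, interval or p-value could be given, and every difference below is between those arrays.

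Values are log2 signals from RMA, so a difference of 1 is 2-fold and a difference of 2 is 4-fold. A gene was called higher or lower where the difference reached 4-fold, or 2-fold where so stated, and the brighter array was at or above 6.78, the median of all named values. Levels of different genes are not set against each other, because each probe set has its own sensitivity.

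The labels were checked against marker genes. In iPS cells 9 of 10 pluripotency markers were at or above that median, against 0 of 10 on each of the other arrays, and the summed linear signal of 10 club cell markers was 977 in iPS cells, against 99873 at Day0, 38175 at 3w+Dox and 45850 in withdrawn cells. Markers of other cells were not constant. The summed signal of 10 fibroblast markers was 7912 in iPS cells, against 854.5 at Day0, 38933 at 3w+Dox and 40022 in withdrawn cells. For 17 leukocyte markers the sum was 4205 in iPS cells, against 1625 at Day0, 14008 at 3w+Dox and 18850 in withdrawn cells, with macrophage genes such as C1qb and Adgre1 bright in both cultures and Cd3e and Cd79a, markers of T and B cells, under the median on all 4 arrays. Alveolar type 2 markers summed to 2881 in iPS cells, against 54398 at Day0, 33083 at 3w+Dox and 40188 in withdrawn cells, and ciliated cell markers to 1226 in iPS cells, against 16424 at Day0, 1613 at 3w+Dox and 6511 in withdrawn cells. Such sums are carried by the brightest genes. For fibroblasts, all 10 markers reached the median of all values in iPS cells and in both cultures, against 1 of 10 at Day0. The median log2 signal of these 10 markers was 9.41 in iPS cells, against 5.98 at Day0. In iPS cells 7 of 17 leukocyte markers reached the median, among them Laptm5 (10.72) and Cd68 (10.25), while Ptprc (4.51) and Adgre1 (5.75) did not. Of 9 alveolar type 2 markers 2 reached it in iPS cells, with Etv5 at 11.13. Interferon-stimulated and class I genes are used by many of these cell types, fewer cells of a type and less RNA per cell cannot be told apart in bulk RNA, and the part of cell makeup in the results was not tested.

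Interferons are secreted proteins that warn cells of infection. Type I interferons bind the receptor of Ifnar1 and Ifnar2, whose kinases Jak1 and Tyk2 activate STAT proteins. Stat2 joins Irf9 in the complex ISGF3, which binds interferon-stimulated response elements (ISREs) and switches on antiviral genes. Interferon gamma acts mainly through GAS elements. MHC class I molecules, made of a heavy chain and beta-2 microglobulin, display peptides that the proteasome cuts and the TAP transporter carries into the endoplasmic reticulum. T cells read these peptides, and natural killer cells respond where class I is missing. Pluripotent stem cells are known for low class I levels and a muted interferon response, and airway epithelium is a first site of contact with respiratory viruses.

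Promoters of the measured genes were read first, since ISGF3 acts on short motifs in them. Windows that run 250 bases before to 50 bases after an annotated start (RefSeq, GRCm38.p6) were found for 28 of the 37 genes. An ISRE core, searched on both strands as GAAA, then any 2 bases, then GAAA, was present for 12 of these 28 genes (42.9%). Counted by window, 12 of 33 held the core (36.4%), against 3.44% of all 32851 windows. It occurred for 11 of 20 interferon-stimulated genes and for 1 of 8 class I genes, B2m. A GAS core, TTCNNNGAA, searched on both strands (the pattern is its own complement), was present for 6 of 28 genes (21.4%). Counted by window, 6 of 33 held a GAS core (18.2%), against 8.3% of all windows. A match describes the letters only. The windows of Ifit1 (chr19:34640639-34640938, plus strand), Gbp2 (chr3:142620413-142620712, plus strand), Ifih1 (chr2:62646206-62646505, minus strand) and Bst2 (chr8:71537423-71537722, minus strand) are printed because these genes had ISRE cores yet different patterns over the arrays. Each is given 5′ to 3′ along the gene, with ISRE cores in capitals.
Ifit1: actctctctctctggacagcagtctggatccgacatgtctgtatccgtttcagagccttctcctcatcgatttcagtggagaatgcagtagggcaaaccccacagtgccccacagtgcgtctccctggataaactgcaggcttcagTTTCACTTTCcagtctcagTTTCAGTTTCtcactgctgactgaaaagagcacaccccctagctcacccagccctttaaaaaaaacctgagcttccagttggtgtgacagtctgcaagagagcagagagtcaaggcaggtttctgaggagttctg
Gbp2: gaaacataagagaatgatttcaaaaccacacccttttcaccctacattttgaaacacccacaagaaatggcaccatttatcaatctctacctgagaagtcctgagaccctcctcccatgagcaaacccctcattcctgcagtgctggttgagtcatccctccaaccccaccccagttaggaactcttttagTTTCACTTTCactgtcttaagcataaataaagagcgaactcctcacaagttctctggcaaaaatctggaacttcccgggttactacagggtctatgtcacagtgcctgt
Ifih1: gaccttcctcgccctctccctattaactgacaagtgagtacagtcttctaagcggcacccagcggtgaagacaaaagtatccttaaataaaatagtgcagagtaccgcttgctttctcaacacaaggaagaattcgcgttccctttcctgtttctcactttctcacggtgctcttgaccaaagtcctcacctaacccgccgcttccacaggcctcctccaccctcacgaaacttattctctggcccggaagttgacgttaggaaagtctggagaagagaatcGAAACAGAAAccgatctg
Bst2: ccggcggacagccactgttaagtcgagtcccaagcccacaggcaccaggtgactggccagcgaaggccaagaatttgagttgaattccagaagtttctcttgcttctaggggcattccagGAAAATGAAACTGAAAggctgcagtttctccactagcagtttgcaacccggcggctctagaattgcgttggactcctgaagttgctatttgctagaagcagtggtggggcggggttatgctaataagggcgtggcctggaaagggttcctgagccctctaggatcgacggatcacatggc

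Counted from the start site, the cores of Ifit1 began at positions -104 and -85. Those of Bst2 began at -130 and -124 and thus overlapped. The single core of Gbp2 began at -59, and that of Ifih1 at position 33 of the transcript, not upstream. The heavy chain genes H2-K1 and H2-D1 had no match to the full core. Both matched a form that is shorter by 1 base, GAANNGAAA, which was added after the data had been examined and was present in 7.52% of all windows. The window of B2m (chr2:122147437-122147736, plus strand) is shown with its full core in capitals, and those of H2-D1 (chr17:35262844-35263143, plus strand) and H2-K1 (chr17:34000298-34000597, minus strand) with the shorter form in capitals, because the 3 genes encode the chains of one molecule.
B2m: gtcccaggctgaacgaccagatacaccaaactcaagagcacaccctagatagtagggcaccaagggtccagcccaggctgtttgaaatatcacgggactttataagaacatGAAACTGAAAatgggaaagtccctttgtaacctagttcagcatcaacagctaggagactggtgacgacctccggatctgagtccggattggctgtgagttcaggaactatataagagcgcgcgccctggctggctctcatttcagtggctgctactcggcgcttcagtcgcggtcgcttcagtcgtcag
H2-D1: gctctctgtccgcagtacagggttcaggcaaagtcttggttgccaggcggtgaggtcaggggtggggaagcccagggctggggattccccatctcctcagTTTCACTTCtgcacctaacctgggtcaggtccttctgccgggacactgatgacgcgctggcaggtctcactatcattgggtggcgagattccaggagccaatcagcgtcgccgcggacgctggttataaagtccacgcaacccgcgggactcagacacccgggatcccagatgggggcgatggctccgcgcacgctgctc
H2-K1: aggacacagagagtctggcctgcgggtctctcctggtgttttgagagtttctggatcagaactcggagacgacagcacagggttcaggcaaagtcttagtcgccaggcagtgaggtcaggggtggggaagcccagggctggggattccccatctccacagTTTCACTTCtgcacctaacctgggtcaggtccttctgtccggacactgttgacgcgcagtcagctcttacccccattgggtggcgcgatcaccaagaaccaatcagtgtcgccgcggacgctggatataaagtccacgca

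The capitals of H2-D1 and H2-K1 spell the same 9 bases, on the strand opposite to the pattern as written, and they began at position -150 of H2-D1 and -90 of H2-K1. H2-K1 has a second annotated start, for which the same bases began at position -104. Tap1 and Psmb9, a transporter subunit and an immunoproteasome subunit, run in opposite directions from start sites 226 bases apart on chromosome 17, and their windows shared 275 bases. Neither window held an ISRE core or the shorter form.

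Across the 4 arrays the plainest feature was a low signal in iPS cells. The lowest of the 4 signals was in iPS cells for 25 of 37 genes (67.6%), against 29.6% of all named genes, and this held for 16 of 27 interferon-stimulated and 9 of 10 class I genes. The highest signal was in iPS cells for 4 genes (10.8%, against 34.9% of all named genes), namely Stat2, Oas3, Bst2 and Ifitm1. It was at Day0 for 16 (43.2%, against 32.5%), at 3w+Dox for 8 (21.6%, against 15.2%) and in withdrawn cells for 9 (24.3%, against 17.5%). Over Day0, 3w+Dox and withdrawn cells, 27 of 37 genes (73%) lay inside a 2-fold range. That share was near the 78.2% of all named genes, so the 37 were no steadier than genes at large. Dim genes are included in this count, which had no brightness limit. The signals of 6 genes (16.2%, against 40.3% of all named genes) lay under the median of all values on all 4 arrays. These were Isg15, Oas3, Mx2, Gbp3, Ifitm1 and Nlrc5, and their differences are read with that limit. Genes this dim cannot be called, so the called shares of all named genes are held down more than those of the 37.

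**Figure D1:**
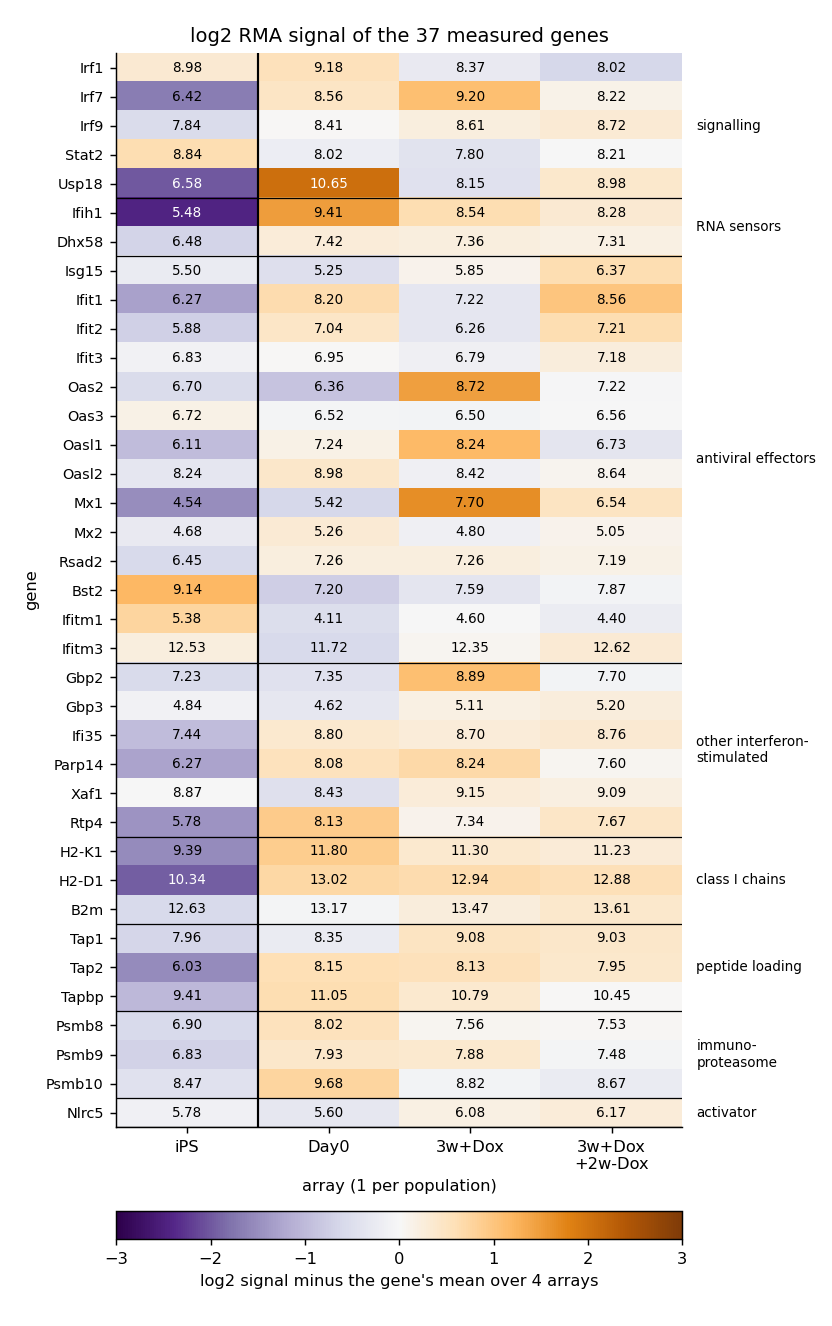
The heatmap gives the log2 RMA signal of the 37 measured genes (rows, by role) on the 4 arrays (columns, 1 array per population), with colour for the signal minus that gene's mean over the 4 arrays. The iPS column holds the lowest signal of 25 genes, and Usp18 stands out at Day0 with 10.65.

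Compared with Day0, iPS cells had 7 of 37 genes at least 4-fold lower (18.9%), against 5.87% of all named genes, and 0 of 37 at least 4-fold higher, against 4.87%. At 2-fold, 16 were lower (43.2%), against 12.3% of all genes, and 1 was higher (2.7%), against 12.9%. The median difference was -0.58 for interferon-stimulated genes and -1.17 for class I genes, against 0.00 for all named genes. On those arrays the genes that were at least 4-fold lower were Usp18, Ifih1, H2-D1, H2-K1, Rtp4, Irf7 and Tap2. Among lower genes Tap2, at -2.12, was the nearest to the 4-fold threshold from inside and Ifit1, at -1.93, the nearest from outside, and among higher genes Bst2, at 1.94, was the nearest from outside.

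The class I heavy chains were among these. H2-D1, a classical heavy chain, had a log2 signal of 10.34 in iPS cells, against 13.02 at Day0, 12.94 at 3w+Dox and 12.88 in withdrawn cells, so the other 3 arrays were within 0.14 of each other and iPS cells were 6.41-fold below Day0. H2-K1, the other classical heavy chain measured, read 9.39 in iPS cells, against 11.80 at Day0, 11.30 at 3w+Dox and 11.23 in withdrawn cells, a difference of -2.41 from Day0. B2m, the light chain that both heavy chains need, moved least of the 3, with 12.63 in iPS cells, against 13.17 at Day0, 13.47 at 3w+Dox and 13.61 in withdrawn cells. The difference of B2m between iPS cells and Day0 was -0.54. H2-K1 and H2-D1 are close relatives in a multigene family, and probes that match several class I genes could share signal between them.

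Peptide supply and loading showed unequal differences. Tap2, a subunit of the TAP transporter, had 6.03 in iPS cells, against 8.15 at Day0, 8.13 at 3w+Dox and 7.95 in withdrawn cells. Its partner subunit Tap1 had 7.96 in iPS cells, against 8.35 at Day0, 9.08 at 3w+Dox and 9.03 in withdrawn cells, so the iPS minus Day0 difference was -2.12 for Tap2 and -0.39 for Tap1. Tapbp, which encodes tapasin, the protein that bridges class I molecules to TAP, read 9.41 in iPS cells, against 11.05 at Day0, 10.79 at 3w+Dox and 10.45 in withdrawn cells. All 3 immunoproteasome genes were at least 2-fold lower in iPS cells than at Day0, against 12.3% of all named genes. Their products replace the catalytic subunits of the standard proteasome. Psmb8 had 6.90 in iPS cells, against 8.02 at Day0, 7.56 at 3w+Dox and 7.53 in withdrawn cells. Psmb9 had 6.83 in iPS cells, against 7.93 at Day0, 7.88 at 3w+Dox and 7.48 in withdrawn cells. Psmb10 had 8.47 in iPS cells, against 9.68 at Day0, 8.82 at 3w+Dox and 8.67 in withdrawn cells, and is the 1 immunoproteasome gene for which both cultures lay nearer to iPS cells than to Day0. Nlrc5, the activator of class I transcription, was dim on all 4 arrays, with 5.78 in iPS cells, against 5.60 at Day0, 6.08 at 3w+Dox and 6.17 in withdrawn cells.

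For the standard proteasome core, all 12 measured genes of its 14 had a higher signal in iPS cells than at Day0, with a median difference of 0.48. However, 0 of 12 reached 2-fold above the brightness limit, against 12.9% of all named genes. Psmb6, which Psmb9 replaces, had 9.19 in iPS cells, against 8.58 at Day0, 8.31 at 3w+Dox and 8.43 in withdrawn cells. Psmb7, which Psmb10 replaces, was 0.54 above Day0 in iPS cells, and read 10.07 at Day0, 9.92 at 3w+Dox and 9.84 in withdrawn cells. Psmb6 and Psmb7 thus had their highest signals in iPS cells, where Psmb9 and Psmb10 had their lowest. Psmb5, the partner that Psmb8 replaces, had no named probe set, so only 2 of the 3 pairs could be read. Among 21 measured helpers of class I (peptide trimming, chaperones, regulators), 1 was at least 4-fold lower in iPS cells than at Day0 (4.76%), which is below the 5.87% of all named genes. This was Erap1, the aminopeptidase that trims peptides to class I length, with 5.96 in iPS cells, against 9.12 at Day0, 8.15 at 3w+Dox and 8.04 in withdrawn cells. Tapbpl, a relative of tapasin, and Sppl2a, an intramembrane protease, differed by -1.89 and -1.73, while Nfyb, a subunit of the promoter-binding factor NF-Y, was 1.27 higher and Blmh, a cytosolic peptidase, 1.07 higher. Rfx5, which binds class I and class II promoters, differed by -0.55, and Psme1 and Psme2, subunits of the proteasome activator PA28, by -0.92 and 0.25. Of 30 measured class I-like heavy chain genes, 3 were at least 4-fold lower (10%, against 5.87%), Azgp1, Hfe (an iron regulator) and Mr1 (which presents vitamin B metabolites), with differences of -4.35, -3.37 and -3.07. Azgp1 reached the median of all values at Day0 only. Its 3w+Dox minus Day0 difference was already -4.28, and its iPS minus 3w+Dox difference was -0.07. For Hfe and Mr1 the iPS minus 3w+Dox differences were -2.04 and -2.13.

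Of 5 interferon signalling genes, 2 were at least 4-fold lower in iPS cells than at Day0 (40%, against 5.87%) and 0 were higher. Usp18, a protease that removes Isg15 from proteins and damps receptor signalling, had the largest difference of the 37 genes, with 6.58 in iPS cells, against 10.65 at Day0, 8.15 at 3w+Dox and 8.98 in withdrawn cells. The Day0 array stood above all others for this gene, and the iPS signal was 16.8-fold below it. Irf7, the factor that amplifies type I interferon production, read 6.42 in iPS cells, against 8.56 at Day0, 9.20 at 3w+Dox and 8.22 in withdrawn cells. Irf9, the DNA-binding part of ISGF3, was less far apart, with 7.84 in iPS cells, against 8.41 at Day0, 8.61 at 3w+Dox and 8.72 in withdrawn cells. Stat2, its partner, had its highest signal in iPS cells, with 8.84, against 8.02 at Day0, 7.80 at 3w+Dox and 8.21 in withdrawn cells. Irf1, a factor downstream of interferon gamma, differed little between iPS cells (8.98) and Day0 (9.18) and was lower in both cultures, with 8.37 at 3w+Dox and 8.02 in withdrawn cells.

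Of 2 cytosolic RNA sensors on the fixed list, 1 was at least 4-fold lower in iPS cells than at Day0 (50%, against 5.87%). This was Ifih1, which encodes the double-stranded RNA sensor MDA5, with 5.48 in iPS cells, against 9.41 at Day0, 8.54 at 3w+Dox and 8.28 in withdrawn cells. The iPS signal was 15.2-fold below Day0 and under the median of all values, while the other arrays were well above it. Dhx58, which encodes the regulator LGP2, had 6.48 in iPS cells, against 7.42 at Day0, 7.36 at 3w+Dox and 7.31 in withdrawn cells, so it was within 2-fold, and the last 3 lay within 0.11 of each other. The related sensor RIG-I (Ddx58), from the wider list of nucleic acid sensors, was even, with 10.38 in iPS cells, against 10.52 at Day0, 10.51 at 3w+Dox and 10.38 in withdrawn cells.

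Antiviral effectors were mixed. Of 14 measured, 3 were at least 2-fold lower in iPS cells than at Day0 (21.4%, against 12.3% of all named genes) and 1 was higher (7.14%, against 12.9%). The lower ones were Ifit1 and Ifit2, which bind viral RNA and the translation machinery, and Oasl1, a relative of the RNA-activated OAS enzymes. Ifit1 had 6.27 in iPS cells, against 8.20 at Day0, 7.22 at 3w+Dox and 8.56 in withdrawn cells, and Ifit2 had 5.88 in iPS cells, against 7.04 at Day0, 6.26 at 3w+Dox and 7.21 in withdrawn cells. Their neighbour Ifit3 was nearly flat, from the lowest value of 6.79 at 3w+Dox to the highest of 7.18 in withdrawn cells. Bst2, or tetherin, which holds budding viruses at the cell surface, was the exception, with 9.14 in iPS cells, against 7.20 at Day0, 7.59 at 3w+Dox and 7.87 in withdrawn cells. It was 3.83-fold above Day0 and the only one of the 37 genes that was at least 2-fold above each other array in iPS cells (2.7%, against 7.8% of all named genes). Ifitm3, a membrane protein that blocks virus entry, was bright throughout, with 12.53 in iPS cells, against 11.72 at Day0, 12.35 at 3w+Dox and 12.62 in withdrawn cells. Its relative Ifitm1 had its highest signal in iPS cells at 5.38, under the median of all values. Rsad2, or viperin, an enzyme that makes a chain-terminating nucleotide, had 6.45 in iPS cells, against 7.26 at Day0, 7.26 at 3w+Dox and 7.19 in withdrawn cells. Oasl2 had 8.24 in iPS cells, against 8.98 at Day0, a difference of -0.74. Isg15, a ubiquitin-like modifier, read 5.50 in iPS cells, against 5.25 at Day0, 5.85 at 3w+Dox and 6.37 in withdrawn cells, all under the median. Oas3, between 6.50 and 6.72, and Mx2, between 4.68 and 5.26, were under it too and had no difference of 2-fold.

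Of the 6 remaining interferon-stimulated genes, 3 were at least 2-fold lower in iPS cells than at Day0 (50%, against 12.3%). Rtp4, a receptor transporter, had 5.78 in iPS cells, against 8.13 at Day0, 7.34 at 3w+Dox and 7.67 in withdrawn cells. Parp14, an ADP-ribosyltransferase, had 6.27 in iPS cells, against 8.08 at Day0, 8.24 at 3w+Dox and 7.60 in withdrawn cells. Ifi35 had 7.44 in iPS cells, against 8.80 at Day0, 8.70 at 3w+Dox and 8.76 in withdrawn cells, so that the time course spanned 0.10 and iPS cells lay apart from it. Gbp2 and Gbp3, guanylate-binding GTPases, were within 2-fold, with Gbp2 at 7.23 in iPS cells, against 7.35 at Day0, and Gbp3 between 4.62 and 5.20 on all 4 arrays. Xaf1, a pro-apoptotic protein, had 8.87 in iPS cells, against 8.43 at Day0, 9.15 at 3w+Dox and 9.09 in withdrawn cells.

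**Figure D2:**
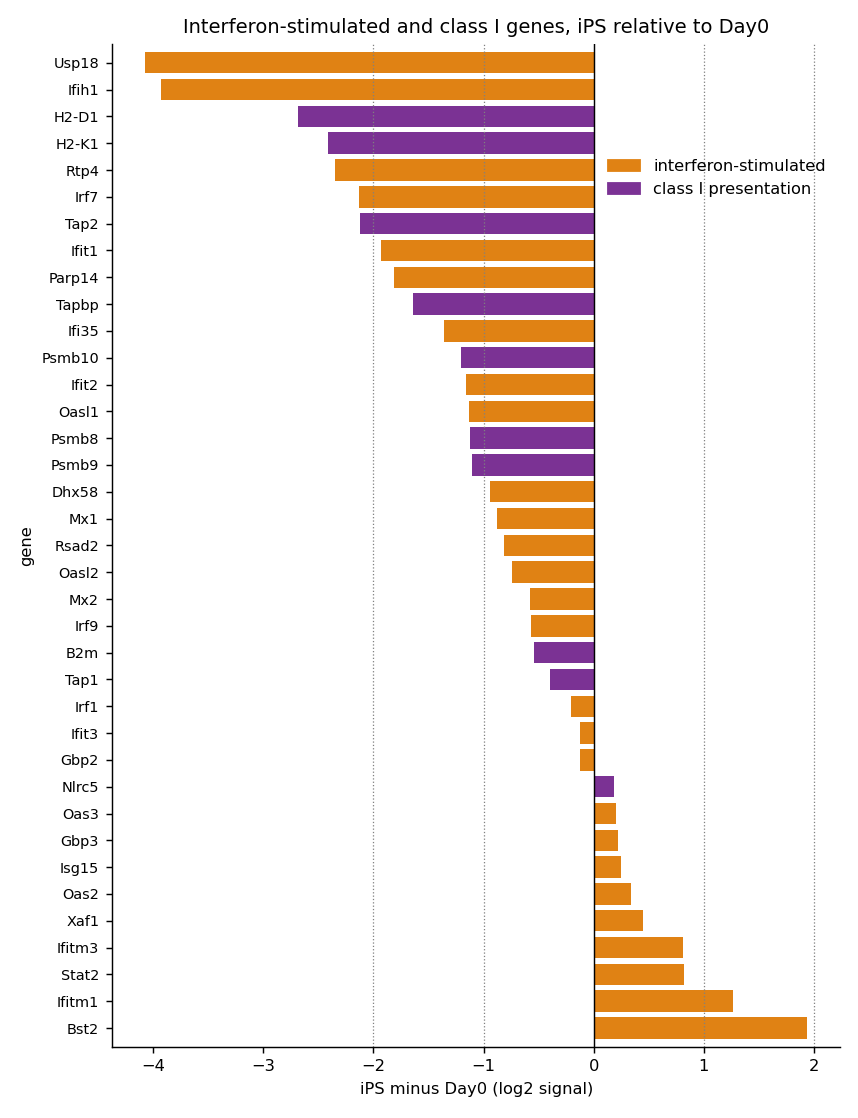
Bars give the difference in log2 signal, iPS minus Day0, for each of the 37 genes, sorted from the lowest, with interferon-stimulated and class I genes in different colours and dotted lines at 2-fold and 4-fold. Bars run from -4.07 for Usp18 to 1.94 for Bst2, and 27 of 37 are below 0.

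Against 3w+Dox, iPS cells again had 7 of 37 genes at least 4-fold lower (18.9%), against 5.13% of all named genes, and 0 higher, against 3.55%. At 2-fold, 16 were lower, against 12.4%, and 2 were higher, Bst2 and Stat2, against 11.3%. The 7 were Mx1, Ifih1, Irf7, H2-D1, Oasl1, Tap2 and Oas2, with differences of -3.17, -3.06, -2.78, -2.61, -2.13, -2.10 and -2.01. Ifih1, Irf7, H2-D1 and Tap2 were thus in both sets of 7, while Mx1, Oasl1 and Oas2 were in the second set only. Mx1 had 4.54 in iPS cells, against 7.70 at 3w+Dox, Oasl1 had 6.11, against 8.24, and Oas2 had 6.70, against 8.72. Between iPS cells and Day0, Oas2 and Mx1 were within 2-fold and Oasl1 differed by -1.13. These comparisons share the iPS array. In all, 10 of the 37 genes were at least 2-fold lower in iPS cells than on each of the other arrays (27%), against 5.6% of all named genes. These were Irf7, Usp18, Ifih1, Ifi35, Parp14, Rtp4, H2-K1, H2-D1, Tap2 and Tapbp.

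At 3w+Dox, compared with Day0, the genes as a whole were level but a few effectors stood apart. Of the 37 genes, 2 were at least 4-fold higher (5.41%), against 4.3% of all named genes, and 1 was at least 4-fold lower (2.7%), against 2.86%. At 2-fold the counts were 3 higher (8.11%, against 8.55%) and 1 lower (2.7%, against 7.43%), so neither direction exceeded the share in all genes. The median difference was -0.00 for interferon-stimulated genes and -0.06 for class I genes, against -0.09 for all named genes. Oas2, which makes the second messenger that activates RNase L, had 8.72 at 3w+Dox, against 6.36 at Day0, 5.11-fold higher. Mx1, a GTPase that blocks influenza virus, had 7.70 at 3w+Dox, against 5.42 at Day0, 4.88-fold higher. Gbp2, a GTPase that attacks vacuoles of intracellular pathogens, had 8.89 at 3w+Dox, against 7.35 at Day0. Oasl1, with 8.24 at 3w+Dox, against 7.24 at Day0, fell just short of 2-fold, and Irf7 was 0.64 higher.

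Other genes of the same response were lower in the same cells. Usp18 was 5.65-fold lower, at 8.15 at 3w+Dox, against 10.65 at Day0. Ifit1, Ifih1, Irf1, Rtp4 and Ifit2 were also lower, with differences of -0.98, -0.87, -0.82, -0.79 and -0.78, each within 2-fold. Antiviral effectors differed unequally. Oas2 and Mx1 were higher, while Rsad2 (7.26 on both arrays) was within 2-fold. Their relatives Oas3 (6.50 at 3w+Dox, against 6.52 at Day0) and Mx2 (4.80, against 5.26) were dim on all 4 arrays. These 2 relatives could not be called and are not set against Oas2 and Mx1. Among class I genes 0 of 10 reached 2-fold in either direction, against 8.55% of all named genes higher and 7.43% lower. For a list of 10 genes, such a count is close to those shares. The widest class I differences were 0.73 for Tap1 and -0.86 for Psmb10. Summed leukocyte marker signal was 14008 at 3w+Dox, against 1625 at Day0, with 12 of 17 markers at least 2-fold higher, and all 10 fibroblast markers were at least 4-fold higher on the same array. The part of those cells in the differences of Oas2, Mx1, Gbp2 and Usp18 was not tested.

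After withdrawal of doxycycline, Oas2, Mx1, Gbp2, Oasl1 and Irf7 were nearer to their Day0 signals than at 3w+Dox. Others with a smaller excess at 3w+Dox were farther from Day0, such as Ifitm3 (0.64 above Day0 at 3w+Dox and 0.90 in withdrawn cells) and Isg15 (0.60 and 1.12). Between withdrawn cells and 3w+Dox, 4 of 37 genes were at least 2-fold lower (10.8%), against 1.86% of all named genes, and 1 was higher (2.7%), against 1.4%. At 4-fold the counts were 0 higher and 0 lower, against 0.302% and 0.466%. The 4 lower genes were Oasl1, Oas2, Gbp2 and Mx1, with differences of -1.51, -1.49, -1.19 and -1.17, and Irf7 followed at -0.98. Oas2 read 6.36 at Day0, 8.72 at 3w+Dox and 7.22 in withdrawn cells. Mx1 read 5.42 at Day0, 7.70 at 3w+Dox and 6.54 in withdrawn cells. Gbp2 read 7.35 at Day0, 8.89 at 3w+Dox and 7.70 in withdrawn cells. Each of these 3 genes peaked at 3w+Dox at least 2-fold above both other times (8.11% of the 37, against 1.11% of all named genes), and in withdrawn cells Gbp2 lay within 0.35 of Day0 while Oas2 stayed 0.86 and Mx1 1.12 above it. The comparisons with Day0 and with withdrawn cells share the 3w+Dox array. The gene that was higher was Ifit1, with 8.56 in withdrawn cells, against 7.22 at 3w+Dox. Ifit2 and Usp18 were higher by 0.95 and 0.83, so the genes that were lower at 3w+Dox included some that were then higher in withdrawn cells. The leukocyte marker sum was 18850 in withdrawn cells, against 14008 at 3w+Dox, while the median log2 signal of these markers was 8.11, against 8.81. Of the 17 leukocyte markers, 10 were higher and 7 lower in withdrawn cells. The fibroblast sum was 40022 in withdrawn cells, against 38933 at 3w+Dox. The part of leukocytes and fibroblasts in the differences over this step was not tested.

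**Figure D3:**
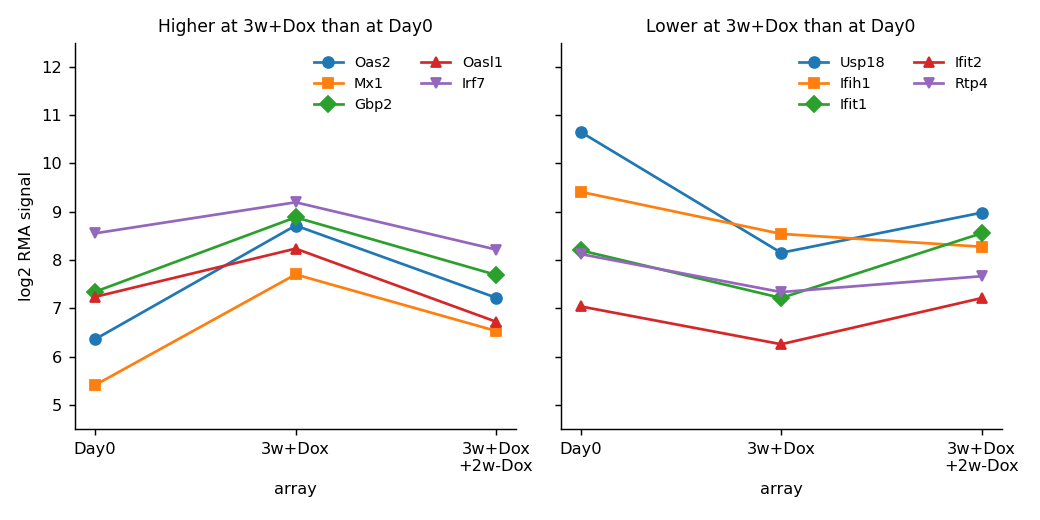
Lines join the log2 RMA signal of single genes over Day0, 3w+Dox and 3w+Dox+2w-Dox (1 array each), with genes that were above Day0 at 3w+Dox on the left and genes that were below it on the right. The panels hold 5 genes each, picked after their values were seen, and all 5 on the left are lower in withdrawn cells than at 3w+Dox.

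In withdrawn cells compared with Day0, 0 of 37 genes were 4-fold apart in either direction, against 4.02% of all named genes higher and 1.84% lower. At 2-fold, 0 were higher, against 7.74%, and 4 were lower (10.8%), against 7.71%. The lower genes were Usp18, Irf1, Ifih1 and Psmb10, with differences of -1.67, -1.16, -1.14 and -1.01. Usp18 had 8.98 in withdrawn cells, against 10.65 at Day0, and Irf1 had 8.02 in withdrawn cells, against 9.18 at Day0. Isg15 and Mx1 were each 1.12 higher in withdrawn cells but stayed under the brightness limit. Class I chains remained close to Day0, with differences of -0.14 for H2-D1, -0.56 for H2-K1 and 0.44 for B2m.

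The rest of the pathway was read from lists of related genes. Of 17 measured interferon genes, 10 were under the median of all values on all 4 arrays and could not be called. Between iPS cells and Day0, 0 of the 17 were called at 2-fold, against 12.9% of all named genes higher and 12.3% lower. Ifnb1, the first interferon that most infected cells make, lay between 3.71 and 3.98 on all 4 arrays. Ifnz, a type I interferon gene, was the only one called at 3w+Dox, with 7.48 at 3w+Dox, against 5.79 at Day0, and its difference between iPS cells and 3w+Dox was -2.25. Receptor, JAK and STAT genes were lower in iPS cells than at Day0 at 2-fold in 5 of 10 (50%, against 12.3%), and higher in 0 of 10, against 12.9%. Il10rb, a shared chain of the interferon lambda and IL-10 receptors, had 7.54 in iPS cells, against 10.84 at Day0, and Ifngr1, the ligand-binding chain for interferon gamma, had 8.18 in iPS cells, against 10.47 at Day0. Ifnlr1, the chain specific to interferon lambda, differed by -1.87, Ifnar2 by -1.18 and Stat3 by -1.08, while Ifnar1 (9.39 in iPS cells, against 9.29 at Day0), Tyk2 (8.53, against 8.26), Jak1 (10.44, against 11.07) and Ifngr2 (9.54, against 10.02) were within 2-fold. At 3w+Dox, Ifngr2 and the kinase gene Jak2 were 1.51 and 1.25 higher than at Day0 (20% of the list, against 8.55%), and 0 of 10 were lower at 2-fold, against 7.43%.

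Among 16 measured genes of nucleic acid sensing, 4 were at least 4-fold lower (25%, against 5.87%) and 1 was higher (6.25%, against 4.87%) in iPS cells than at Day0. Tlr3, the endosomal receptor for double-stranded RNA, had 6.17 in iPS cells, against 10.69 at Day0, 10.46 at 3w+Dox and 10.04 in withdrawn cells. Sting1, the adaptor of cytosolic DNA sensing, had 6.69 in iPS cells, against 9.87 at Day0, 9.65 at 3w+Dox and 10.36 in withdrawn cells. Myd88, a Toll-like receptor adaptor, and the kinase gene Ikbke differed by -2.61 and -2.06. Aim2, an inflammasome sensor of DNA, ran the other way, and was 5.15 log2 units above Day0 in iPS cells, with 8.95 at 3w+Dox and 7.76 in withdrawn cells. At 3w+Dox 3 of the 16 were at least 4-fold higher than at Day0 (18.8%, against 4.3%), Aim2 by 3.80, Tlr7, an endosomal receptor for single-stranded RNA, by 2.46, and Zbp1, a sensor of left-handed nucleic acids, by 2.20. Zbp1 was then lower in withdrawn cells, at 7.53, against 9.24 at 3w+Dox, while Tlr7 was higher still, at 9.32, against 8.10 at 3w+Dox. Cgas stayed under the median of all values on all 4 arrays, and Irf3, the factor that sensors activate, had 8.90 in iPS cells, against 9.75 at Day0.

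A wider list held 80 measured interferon-stimulated genes. Between iPS cells and Day0, 22 of 80 were lower at 2-fold (27.5%, against 12.3% of all named genes) and 2 were higher (2.5%, against 12.9%), with a median of -0.40. The lowest were Sp100, a nuclear body protein, with 4.40 in iPS cells, against 8.63 at Day0, and Samd9l, a translation inhibitor, with 4.68, against 8.48. Epsti1 differed by -3.11, and Pml, which builds the nuclear bodies that hold Sp100, by 2.02. At 3w+Dox 11 of 80 were at least 2-fold higher than at Day0 (13.8%, against 8.55%), and 1 was lower (1.25%, against 7.43%), with a median of 0.24, against -0.09 for all named genes. Ifi202b and Ifi204, DNA-binding proteins of the mouse p200 family, were 4.49 and 4.02 higher and stayed so in withdrawn cells, at 7.74 and 6.94, against 7.08 and 6.99 at 3w+Dox. Ifit1bl1, a relative of Ifit1, had 8.22 at 3w+Dox, against 5.38 at Day0, and 5.76 in withdrawn cells. Of the 80 genes, 4 peaked at 3w+Dox in this way (5%, against 1.11% of all named genes), Ifit1bl1, Gbp8, Oas1g and Trim12c.

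Negative regulators and related genes gave 14 measured genes, of which 2 were lower at 4-fold in iPS cells than at Day0 (14.3%, against 5.87%) and 0 were higher. Isg20, which is an antiviral exonuclease and not a negative regulator, had 7.48 in iPS cells, against 11.66 at Day0, and Irf2, a repressor at ISREs, had 7.06, against 10.75. Socs3, a feedback inhibitor of cytokine receptors, differed by -1.58 between 3w+Dox and Day0, and its relative Socs1 by 0.58. Of 5 measured ligands of the natural killer receptor NKG2D, Raet1d and Ulbp1 exceeded their Day0 signals by 3.79 and 3.17 at 3w+Dox, while H60c differed by -1.78. Between iPS cells and Day0, Raet1d differed by 2.53 and H60c by -3.19. MHC class II, the separate pathway that professional antigen-presenting cells and alveolar type 2 cells use, had 3 of 10 genes at least 4-fold lower in iPS cells than at Day0 (30%, against 5.87% of all named genes). H2-Aa read 3.96 in iPS cells, against 9.60 at Day0, Cd74, the invariant chain, 9.04, against 12.71, and H2-Ab1 6.86, against 9.64, while Ciita, the class II activator (6.99, against 7.07), and H2-Eb1 (a difference of -0.75) were within 2-fold. Between withdrawn cells and 3w+Dox, 4 of 10 class II genes were at least 2-fold higher (40%, against 1.4% of all named genes), with H2-Ab1 at 10.97 in withdrawn cells, against 9.63 at 3w+Dox. Of 10 class I genes 0 were called, against 1.4% of all named genes higher and 1.86% lower, a count close to those shares for a list of 10.

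**Figure D4:**
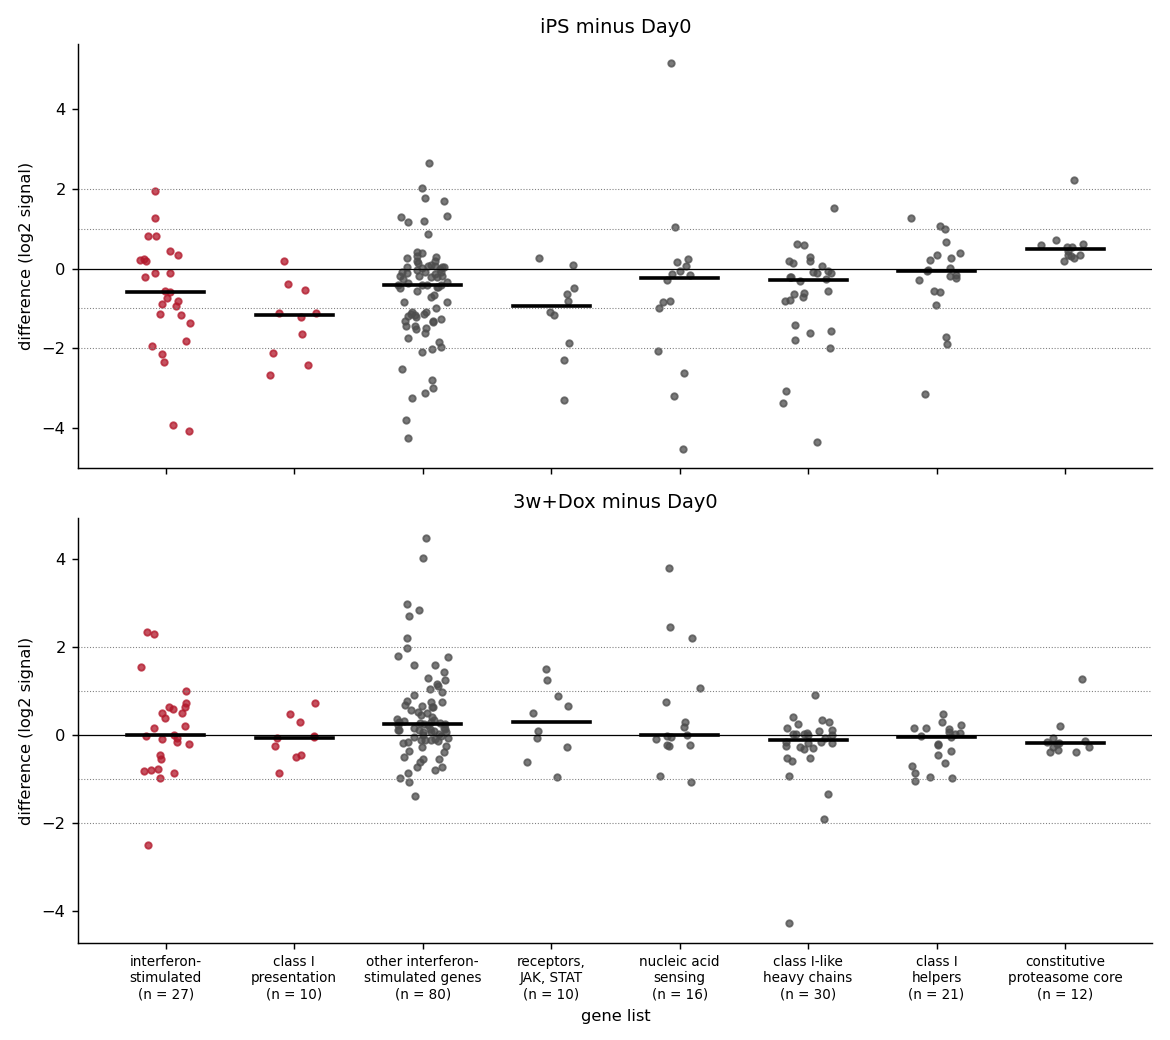
Points are single genes, bars are list medians and dotted lines mark 2-fold and 4-fold. The y axis is the difference in log2 signal, iPS minus Day0 above and 3w+Dox minus Day0 below, and dim genes are included. Class I genes have a median of -1.17 in the upper panel, and the standard proteasome core has 0.48.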

How the data were processed

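Total RNA of 4 mouse populations was measured on 1 Affymetrix array each, after RNeasy extraction, the Ambion WT kit and biotin labelling, per the labels' protocols. The deposited values are log2 signals, which the authors obtained by RMA (affy, R 3.0.2, per the submitters' processing notes). RMA corrects background, quantile normalizes probes and summarises each probe set, and quantile normalization assumes like overall distributions, which would hide a shift of all genes. The sources used here name no genome build or probe annotation version. The deposited table holds 25206 probe sets named by Entrez ID, with 0 missing values. The platform annotation named 23185 of them, and 2021 stayed unnamed and were left out.

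Differences of log2 values were computed with Python 3.11.15, numpy 2.4.6 and pandas 2.3.3, with no further normalization, in 5 pairwise comparisons. Groups came from sample titles. The number of arrays, not depth, limits precision, and no test is possible with 1 array per group. Calls need a 4-fold difference (or 2-fold) with the brighter array at or above 6.78. The rule was checked only on large changes added to bright genes of a copied Day0 array. That check could not test calls near either limit or between real arrays. All 37 genes are named. From each other list, some genes with wide differences and a fixed set are named. These are not always the widest, as Pml is named and Nmi, at -2.99 between iPS cells and Day0, is not. The members, the lists and the motif searches were chosen with earlier results of these data known. RefSeq promoters (GRCm38.p6) were matched by symbol for 28 of 37 genes. Alternatives were the 2-fold and 8-fold thresholds, no brightness limit or one at 8.89 (the 75th percentile), a second quantile normalization, centring on brighter genes, a floor at 5.10 (the 25th percentile), means, and leaving out dim genes.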

Additional observations from a re-analysis of the deposited data

How the results depend on the processing

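Counts of called genes followed the threshold. Between 3w+Dox and Day0, the 2 higher genes became 0 at 8-fold and 0 with the brightness limit at the 75th percentile, and the 1 lower gene became 0 at 8-fold. Between withdrawn cells and 3w+Dox, counts of 0 at 4-fold became 1 higher and 4 lower at 2-fold, and between withdrawn cells and Day0 4 lower at 2-fold. Between iPS cells and Day0, 0 higher became 1 at 2-fold, and 7 lower became 16 at 2-fold, 2 at 8-fold and 4 with the 75th percentile limit. Between iPS cells and 3w+Dox, 0 higher became 2 at 2-fold, and 7 lower became 16 at 2-fold, 2 at 8-fold and 2 with the 75th percentile limit. The median of interferon-stimulated genes between iPS cells and Day0, -0.58, was -0.32 with a floor at the 25th percentile and -0.85 without genes dim on all 4 arrays, where the choice of values itself changes. The other 105 counts and medians stayed within 1.5 times or 0.25 log2 units. Near 0 the sign was not stable. With the mean in place of the median, interferon-stimulated genes gave 0.12 in place of -0.00 between 3w+Dox and Day0 and -0.07 in place of 0.06 between withdrawn cells and 3w+Dox. Of the differences of single genes under a second quantile normalization, centring on brighter genes or the floor, 544 stayed within 0.25 and 11 moved, all of them under the floor (Mx1, Mx2, Gbp3 and Ifitm1). In 8 the sign changed, H2-D1 between 3w+Dox and Day0 among them, all at main values of at most 0.08 in size and none at a called difference. The scalings moved the median of all genes by at most 0.04. With 1 array per population no spread could be estimated, and dim genes cannot be told from background. No paired analysis was possible because each group has 1 array.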
